A study of Mus musculus with 8 samples.

Results

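Dbp, Tef, Hlf and Nfil3 encode 4 related transcription factors with a basic leucine zipper (bZIP), and their mRNA was followed in cultured mouse cerebellar cells with and without T3, the active thyroid hormone. The 4 genes, of 18193 with a symbol of their own on the array, were taken by symbol, with all 8 of their probe-sets (short sets of probes that each read 1 transcript region) of 45037 in the table. Dbp had been picked for its signals with T3 and without it on these same arrays, and the other members for their kinship with it. The T3 differences of all 4 are therefore given as a description, with no test.

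DBP, TEF and HLF are the activators named PAR bZIP factors after a stretch rich in proline and acidic residues beside their DNA-binding domain. They pair through their zippers and bind the D-box, a short site first described in the albumin promoter, after which DBP (D site albumin promoter binding protein) is named. NFIL3, also called E4BP4, has no PAR stretch, binds the same site and represses. In liver, kidney and brain the circadian activators CLOCK and BMAL1 drive Dbp through E-boxes, and mice without the 3 activators are prone to seizures. T3 acts through nuclear receptors on response elements made of paired half-sites.

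The cultures were made from the pooled cerebella of newborn wild-type mice and kept 48 h in a supplemented serum-free medium that favours neurons. They were then either given 0.1 µM T3 or no added T3, under the same changes of medium, for 6, 16, 24 or 48 h. Untreated and without T3 mean without added T3 here, and the T3 content of the medium itself is not given in the sources used. A T3 culture and an untreated culture of the same cell batch were hybridised per time point, 1 array each. The 8 arrays thus hold every condition once, with no replicate. The sample labels and the methods differ on the age of the pups. The clock phase of the cultures is not given in the sources used here, so the hours are hours of treatment and not times of day. Signals are MAS 5 intensities on a linear scale, each array scaled by the authors to a trimmed mean of 100, with array medians of 14.8 to 17.7. Kept were probe-sets in the upper 40% by mean log2 signal (a mean of at least 31.0), 18015 in all, with 7 of the 8 of these 4 genes among them. Neuronal markers were present on all arrays (Tubb3 45.0 to 1020), while Gabra6, the receptor subunit of mature granule cells, was at 2.7 to 12.3 and below the filter. The untreated 24 h array stood apart. The summed signal of 6 astrocyte and Bergmann glia markers was 6027 there, against 1361 to 1733 on the other 7 arrays, and every difference at 24 h uses that array.

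Dbp had a higher signal with T3 at every time point. On its brightest probe-set the signals were 267.8, 596.2, 469.0 and 866.9 with T3 at 6, 16, 24 and 48 h, against 92.7, 218.9, 179.5 and 441.5 without T3. Within each pair the T3 array was the higher one, while the ranges of both treatments overlap across the hours. T3 over untreated came to 2.89-fold at 6 h, 2.72-fold at 16 h, 2.61-fold at 24 h and 1.96-fold at 48 h, with a mean log2 difference of 1.33 ± 0.25 (SD, n = 4 pairs). In bulk cultures, more cells that make Dbp and more Dbp mRNA per cell cannot be told apart.

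The second Dbp probe-set is dimmer and ran the same way. Its signals were 72.0, 143.1, 120.1 and 232.0 with T3 and 26.8, 43.5, 45.1 and 116.9 without T3, a mean log2 difference of 1.39 ± 0.30 (SD, n = 4 pairs). Over the 8 arrays the 2 Dbp probe-sets correlated at r = 0.99, as expression readings of the same RNA samples. Both were over 2-fold at 6, 16 and 24 h and just under it at 48 h (1.96-fold and 1.98-fold). Higher by over 2-fold with T3 were 0.527% of all kept probe-sets at 6 h, 0.433% at 16 h, 3.67% at 24 h and 0.833% at 48 h, and 8.25% were higher to any extent at all 4 time points. Since Dbp was picked on this contrast, nothing is read from these shares.

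Dbp lies on chromosome 7 (chr7:45705100-45710203 in GRCm38.p6). The RefSeq promoter window, 250 bases before to 50 after a transcript start at the plus strand, chr7:45704997-45705296, is shown since Dbp is the member with a T3 difference beyond the middle 95% of probe-sets at all 4 time points. Capitals mark CCAAT boxes (CCAAT, read here on the minus strand as ATTGG).
Dbp: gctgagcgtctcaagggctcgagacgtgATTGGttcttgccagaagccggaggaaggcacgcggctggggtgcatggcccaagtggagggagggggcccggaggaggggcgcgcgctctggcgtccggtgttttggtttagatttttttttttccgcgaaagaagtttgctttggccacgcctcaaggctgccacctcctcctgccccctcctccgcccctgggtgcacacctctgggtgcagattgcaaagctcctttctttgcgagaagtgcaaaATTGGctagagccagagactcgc
The window was searched on both strands for the E-box CACGTG, the D-box TTATGTAA and its form TTACGTAA, the receptor half-site AGGTCA, 2 such half-sites in one orientation with 4 bases between them and the cAMP response element TGACGTCA, and none of these letters was found in it. Sequence more than 250 bases upstream of the start or 50 bases downstream of it was not searched. E-boxes and response elements that lie farther out or within the gene are therefore not covered. The authors report a T3 receptor bound at an element upstream of Dbp, in a cerebellar cell line made to express that receptor. The AGGTCA of that element is not in this window, so the search did not cover it. Among 32851 promoter windows of the same length, 7.15% hold the E-box, 0.938% and 0.119% the 2 D-box forms, 16.3% the half-site, 0.0152% the paired half-site, 1.79% the cAMP response element and 37.4% a CCAAT box. The RefSeq gene record begins inside the window, upstream of the transcript start used for it.

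**Figure D1:**
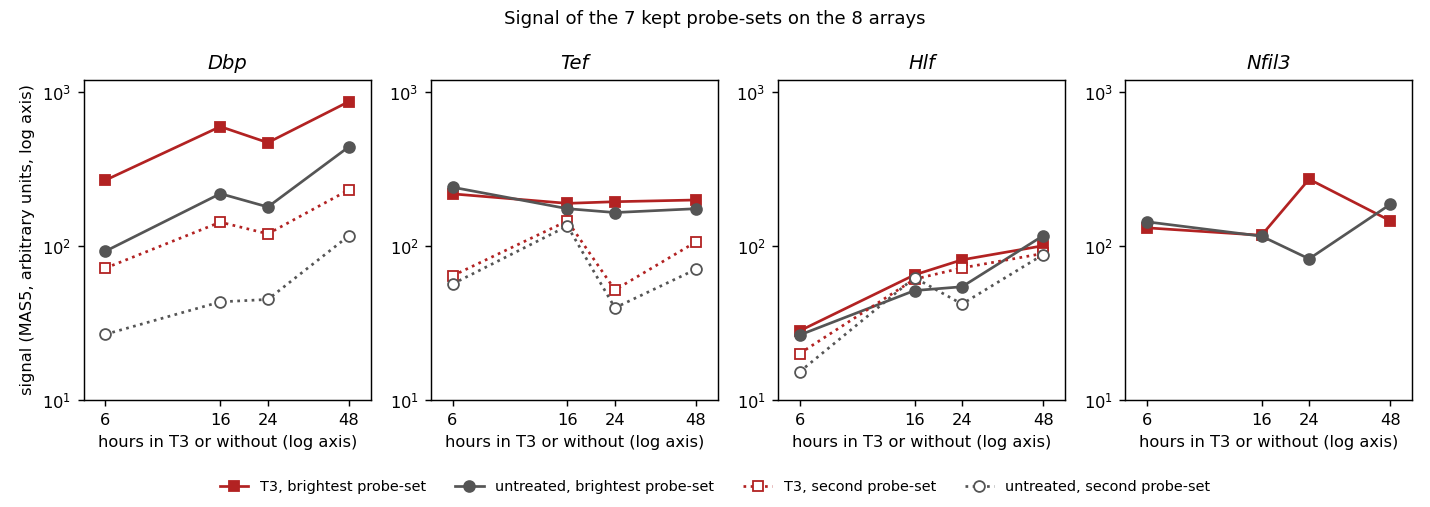
Signal of each kept probe-set of Dbp, Tef, Hlf and Nfil3 on the 8 arrays, on log axes against the hours in T3 or without, 1 array per point. Red squares are T3, grey circles untreated, filled symbols with solid lines the brightest probe-set and open symbols with dotted lines the second. The T3 points of Dbp lie above the untreated ones at all 4 hours on both probe-sets, and those of Nfil3 part at 24 h, at 271.7 with T3 against 82.7 without.

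At all 4 time points 7 of the 18015 (0.0389%) exceeded 1.5-fold with T3, and both Dbp probe-sets were among them. The others belong to Klf9, a zinc finger factor known as a T3 target (2 probe-sets), Kcnj13, a potassium channel of choroid plexus epithelium, Slc6a20a, a proline transporter, and Pcdh8, a protocadherin. Ranked by the smallest of its 4 differences, with each gene given by its brightest probe-set, Dbp came first of 10194 genes (0.97 on the log2 scale), followed by Kcnj13 (0.95), Slc6a20a (0.94), Pcdh8 (0.71) and Klf9 (0.60). This order rests on the choice of probe-set, since the other Klf9 probe-set, with differences of 1.83, 2.26, 2.29 and 1.13 at 6, 16, 24 and 48 h, has a smallest difference (1.13) above those of both Dbp probe-sets (0.97 and 0.99). Some of the ranked differences come from low signals. Slc6a20a was at 10.5 with T3 and 3.4 without at 6 h and at 28.5 and 14.9 at 24 h, and Pcdh8 at 34.4 and 19.3 at 48 h. By the single time point Dbp ranked 7 at 6 h, 8 at 16 h, 85 at 24 h and 86 at 48 h. These ranks describe the gene that was picked and carry no test.

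Some choroid plexus genes moved with Dbp. Kcnj13 was at 87.8, 759.3, 176.3 and 651.0 with T3 at 6, 16, 24 and 48 h, against 43.6, 393.6, 37.6 and 281.3 without T3. Folr1, the folate receptor of that epithelium, was at 359.8, 1186, 371.2 and 1240 with T3 and 183.2, 841.0, 260.0 and 988.0 without T3. Both were thus higher with T3 in all 4 pairs, like Dbp. Ttr, the transthyretin that the epithelium secretes, did not follow. It was at 3837, 3982, 3884 and 3839 with T3 and 3881, 4478, 3415 and 4132 without, higher with T3 at 24 h alone. The summed signal of the 4 choroid plexus markers, of which 3 were kept and Kl (0.9 to 23.2) was near the floor, was 4304, 5950, 4442 and 5744 with T3 and 4119, 5733, 3714 and 5417 without. Ttr makes up most of each sum, and Kcnj13 and Folr1 are counted in it again. The sum was higher with T3 in all 4 pairs, but its size is not set against that of Dbp, since Ttr dominates it. The mean log2 differences were 1.35 for Kcnj13, 0.58 for Folr1 and -0.03 for Ttr, beside 1.33 for Dbp. The part of these markers in the Dbp difference was not tested.

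Tef, the PAR bZIP factor first described in thyrotrophs of the pituitary, showed little difference. Its brightest probe-set was at 218.2, 189.4, 194.1 and 199.2 with T3 at 6, 16, 24 and 48 h, against 241.0, 174.9, 165.1 and 174.9 without T3. The T3 and untreated ranges overlap, and the mean log2 difference was 0.10 ± 0.17 (SD, n = 4 pairs). The second Tef probe-set was at 64.2, 145.8, 52.0 and 106.6 with T3 and 56.8, 135.0, 39.8 and 70.8 without T3 (0.32 ± 0.22). It was highest at 16 h in both treatments, which the first was not, and over the 8 arrays the pair correlated at r = -0.09, so the Tef readings do not run together. The third, at 0.8 to 7.4, lay below the filter and gives no usable level.

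Tef spans chr15:81802673-81826863 (GRCm38.p6) and has 2 promoter windows. Each holds 1 E-box, the letters of which were not found in the Dbp window. This compares the windows alone, since the rest of both genes was not searched, and does not tell whether Dbp has E-boxes elsewhere. The stretches around the Tef E-boxes are shown with the E-box in capitals, on the plus strand at chr15:81802534-81802563 (127 bases before the start) and chr15:81811264-81811293 (138 bases before it).
Tef, upstream start: gtgctgtggctcCACGTGctgcagctggca
Tef, downstream start: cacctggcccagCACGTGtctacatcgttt
A match to these letters is a description of the window and not evidence of binding.

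Hlf, the PAR bZIP factor named for its fusion in hepatic leukaemia, had low signals that lay higher at the later hours. The brightest probe-set was at 28.2, 65.1, 81.5 and 100.6 with T3 at 6, 16, 24 and 48 h, against 26.5, 51.5, 54.5 and 116.9 without T3. At 48 h the untreated array was the higher one, at the other hours the T3 array. The mean log2 difference was 0.20 ± 0.34 (SD, n = 4 pairs), and the second probe-set, at 20.1, 61.0, 72.2 and 89.6 with T3 and 15.3, 62.4, 42.1 and 88.1 without T3, gave 0.29 ± 0.38. Both had their largest T3 difference at 24 h (0.58 and 0.78), within the middle 95% of all kept probe-sets at that hour (-1.35 to 1.10). The Hlf promoter window, on the minus strand of chromosome 11, held a full cAMP response element 9 bases before the start and none of the other motifs. It is shown at chr11:90390907-90390938 with that element in capitals, as the one match to the searched motifs in the Hlf window.
Hlf: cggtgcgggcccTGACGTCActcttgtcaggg

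Nfil3, the repressor, parted from its untreated culture at 24 h alone. Its signals were 131.4, 117.6, 271.7 and 146.0 with T3 at 6, 16, 24 and 48 h, against 143.8, 116.0, 82.7 and 186.6 without T3. At 24 h the T3 array was the highest of the 8 and the untreated array the lowest, 3.29-fold apart, while at the other hours T3 over untreated was 0.91, 1.01 and 0.78. The mean log2 difference was 0.31 ± 0.95 (SD, n = 4 pairs) and came to -0.15 without the 24 h pair. The 24 h pair had 8.83% of all kept probe-sets beyond 2-fold, against 0.855% at 6 h, 0.738% at 16 h and 1.18% at 48 h, and its untreated array is the one with the high glial markers, whose part in the Nfil3 value was not tested. In the Nfil3 window on the minus strand of chromosome 13 a single half-site AGGTCA, read on the opposite strand, lay 12 bases before the start. The RefSeq gene record (chr13:52967209-52982878) reaches upstream past this whole window, so the start used for it lies inside the gene. The half-site is shown as the only receptor half-site in any window of the 4 genes (chr13:52981034-52981063, half-site in capitals).
Nfil3: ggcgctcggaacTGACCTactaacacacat

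**Figure D2:**
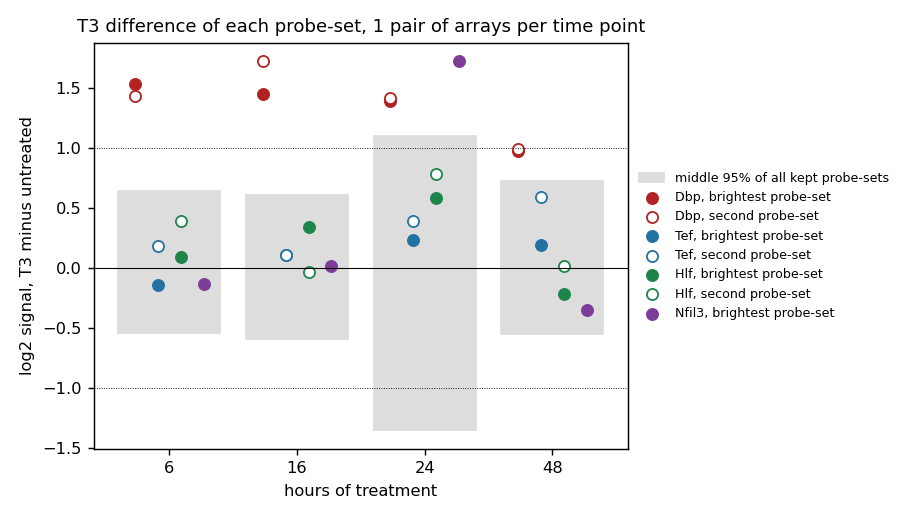
Log2 signal with T3 minus log2 signal without T3 for each kept probe-set at each time point, 1 pair of arrays per point. Grey boxes span the middle 95% of the 18015 kept probe-sets and dotted lines mark 2-fold. Both Dbp probe-sets lie above the box at every hour, Nfil3 only at 24 h (1.72), and no probe-set of Tef or Hlf does.

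Dbp and Hlf rose with the hours of culture. The slopes use the same 8 arrays on which Dbp was picked for its T3 difference. The members were also chosen with earlier results of these data known, so the slopes are not independent of that choice. Untreated Dbp was 4.76-fold higher at 48 h than at 6 h and T3-treated Dbp 3.24-fold higher. For Hlf the same ratios were 4.41-fold without T3 and 3.57-fold with T3. On the brightest probe-sets Dbp at 24 h lay below 16 h in both treatments, so its course was not steady, while Hlf was higher at each later hour. The log2 slope per doubling of the hours was 0.61 for Dbp (SE 0.12, limma adjusted p = 0.0478) and 0.65 for Hlf (SE 0.14, adjusted p = 0.0494), over 8 arrays with treatment as a term and the time point as a random block. In this fit 1.75% of all kept probe-sets rose and 0.422% fell. The slopes of Tef (-0.10, SE 0.10, limma adjusted p = 0.529) and Nfil3 (0.10, SE 0.26, adjusted p = 0.842) did not pass.

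Both calls lie at the threshold. The second probe-sets had like slopes that missed it, 0.59 for Dbp (limma adjusted p = 0.0606) and 0.76 for Hlf (adjusted p = 0.0568), and with 1 mean value per time point neither gene passed (adjusted p = 0.208 for both). Other markers moved over the same hours. The summed signal of 5 vascular and meningeal markers was 521.5, 2303, 2794 and 4225 with T3 at 6, 16, 24 and 48 h and 620.1, 3025, 2074 and 4137 without, and that of 4 neuronal markers 4123, 1450, 2949 and 642.2 with T3 and 4052, 1095, 4329 and 399.4 without. Their part in the slopes of Dbp and Hlf was not tested, and hours and cell batch cannot be told apart, since a batch is stated to be shared only within a time point.

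The members differed in how they ran across the 8 arrays. The brightest probe-set of Dbp correlated with that of Hlf at r = 0.78, of Nfil3 at 0.35 and of Tef at -0.28, and Hlf with Tef at -0.61. These are descriptions over 8 arrays that share time points and treatments. Among the 10194 kept genes, those most like Dbp across the arrays were Mapk6, an atypical MAP kinase (r = 0.989), Fam216a (0.942), Dhrs7b, a reductase (0.939), Bsg, the glycoprotein basigin (0.929), and Rrm2b, a subunit of ribonucleotide reductase (0.927). Mapk6 had a far smaller span, at 521.6, 652.5, 603.9 and 718.8 with T3 and 432.6, 511.6, 484.0 and 577.0 without T3, with the T3 array above the untreated one in all 4 pairs and the same dip at 24 h as Dbp.

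D-box target genes known from other tissues, mostly mouse liver, were taken as a list of 21, of which 18 had a probe-set and 9 were kept. The classical liver targets Alb, Cyp7a1 and Nr1i3, a nuclear receptor, had signals of 0.7 to 14.5 and were not kept. Alas1, the first enzyme of heme synthesis, was at 269.2, 317.3, 315.0 and 359.0 with T3 at 6, 16, 24 and 48 h and at 238.0, 312.5, 234.9 and 439.8 without T3. Pdxk, which activates vitamin B6 and depends on the PAR bZIP factors in mouse brain, was at 137.6, 361.8, 283.9 and 444.1 with T3 and 133.3, 466.7, 271.4 and 508.7 without T3. Neither stood on one side in all 4 pairs. Of the 9 kept targets none passed for T3 in either direction over the 4 pairs (limma), with a median log2 difference of 0.13 beside 0.00 over all kept genes. No probe-set of the 18015 passed in that fit (0% higher and 0% lower, 985 at an unadjusted p under 0.05).

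Per3, a circadian repressor of the PER family, had low signals that lay higher at 48 h than at 6 h. It was at 19.7, 42.2, 36.4 and 83.0 with T3 at 6, 16, 24 and 48 h, against 11.7, 32.4, 29.8 and 60.7 without T3. T3 was the higher array in all 4 pairs (mean log2 difference 0.47, SE 0.17, limma adjusted p = 0.815), and the gene rose with the hours (slope 0.70, SE 0.15, adjusted p = 0.0492), the only one of the 9 targets to pass, beside 213 rising and 51 falling of all 10194 kept genes. This call too is at the threshold, and 0 of the 9 targets rose on time point means, with hours in place of their log2, with quantile normalization, with 32 added, with no filter, or without the 6 h or the 48 h pair. Slopes of Abcb1a, a drug efflux pump of brain vessels (0.88, limma adjusted p = 0.0527), and Pdxk (0.56, adjusted p = 0.0723) did not pass. The Per3 window holds 2 matches to the D-box letters, 205 and 158 bases before the start. That of Alb holds 2 as well, 223 and 204 bases before the start. They are shown as the only such matches among the targets, and a match is not evidence of binding. Those of Alb were not compared with the albumin site after which DBP is named. Of the 17 targets with a window, Per3 and Alb (11.8%) had the D-box TTATGTAA, beside 0.938% of the 32851 promoter windows. The first share counts genes with a match in any of their windows, the second counts single windows. The genes were listed as known D-box targets, so nothing is read from the higher share. Capitals mark the D-box, which is TTACATAA on the other strand. Per3 is read on the minus strand, at chr4:151044851-151044882 and chr4:151044804-151044835, and Alb on the plus strand, at chr5:90460635-90460666 and chr5:90460654-90460685.
Per3, first D-box: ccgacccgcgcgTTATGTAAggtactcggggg
Per3, second D-box: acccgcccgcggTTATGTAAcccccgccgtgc
Alb, first D-box: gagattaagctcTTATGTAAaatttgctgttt
Alb, second D-box: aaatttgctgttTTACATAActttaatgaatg

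**Figure D3:**
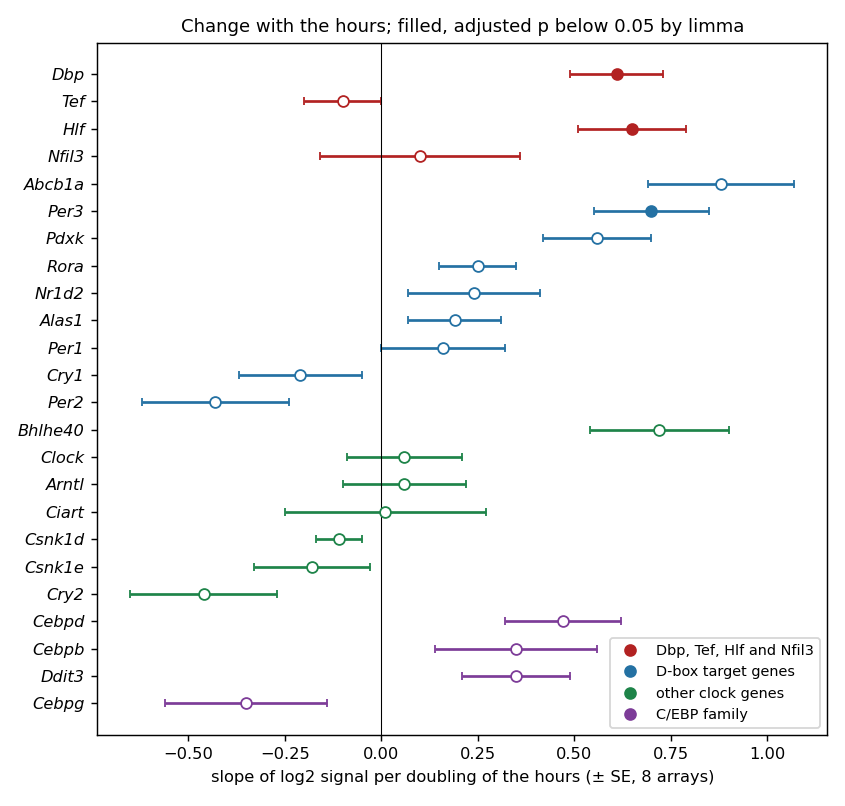
Slope of log2 signal per doubling of the hours with its SE (8 arrays, limma) for Dbp, Tef, Hlf and Nfil3 and the kept genes of the D-box, clock and C/EBP lists, each gene shown once. Filled points passed at an adjusted p under 0.05, which holds for Dbp (0.61), Hlf (0.65) and Per3 (0.70), all near the threshold and none of them passing on time point means.

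Clock genes that act on Dbp were taken as a list of 16, of which 12 were kept, 5 of them also on the target list. Clock and Arntl (Bmal1), which encode the activators of Dbp, had T3 differences near 0 at 6 and 16 h. Clock was at 181.9, 221.6, 264.0 and 207.7 with T3 at 6, 16, 24 and 48 h and at 181.1, 213.4, 137.3 and 216.3 without T3. Arntl, at 68.3 to 159.5 with T3 and 74.0 to 128.2 without T3, had log2 differences of 0.02, 0.03, 0.32 and -0.20. Their part in the Dbp difference was not tested. Among the repressors, the log2 differences at 6 h were 0.75 for Per3, 0.28 for Bhlhe40, 0.23 for Nr1d2 (REV-ERB beta), 0.10 for Cry2, 0.08 for Ciart, -0.10 for Cry1, -0.14 for Per2 and -0.40 for Per1, so they lay on both sides of 0. None of the 12 passed for T3 (limma, median log2 difference 0.24), and 1, Per3, rose with the hours, which under the same alternatives was likewise 0 of the 12. Bhlhe40, an E-box repressor, had a slope of 0.72 (limma adjusted p = 0.0721) and Cry2, a partner of the PER proteins, of -0.46 (adjusted p = 0.172).

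The T3 differences of these lists were largest at 24 h. Of the 9 kept targets 9 were higher with T3 at 24 h, with a median log2 difference of 0.47, and of the 12 kept clock genes 10 were higher (0.61), beside 52.6% of all kept genes (median 0.03). The lists share 5 kept genes, so the 2 counts are not separate. All 24 h differences use the untreated array with the high glial markers, and nothing particular to the lists is read from these counts. At 6, 16 and 48 h the medians were smaller. Of the 12 clock genes 8, 10 and 7 were higher at these hours (medians 0.05, 0.15 and 0.05). Of the 9 targets 6, 6 and 5 were higher (0.15, 0.10 and 0.00), beside 50.1%, 48.3% and 45.8% of all kept genes. At 24 h Ciart, a repressor of CLOCK and BMAL1, was at 108.3 with T3 and 31.9 without. Nr1d2 was at 1123 and 438.1 and Cry1 at 155.4 and 73.7, all 3 over 2-fold higher with T3 at 24 h. Beyond 2-fold at 6, 16 and 48 h were 0 of the 9 and 0 of the 12, beside 76, 67 and 114 of all 10194 kept genes, and 880 of these at 24 h, so nothing particular to the lists is read from the 0. The largest of the 4 differences in size fell at 24 h for 7 of the 9 targets and 8 of the 12 clock genes, beside 54.5% of all kept genes. The largest difference of Nfil3 was also at 24 h, while that of Dbp at 24 h (1.39) lay between those at 16 h (1.45) and 48 h (0.97).

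**Figure D4:**
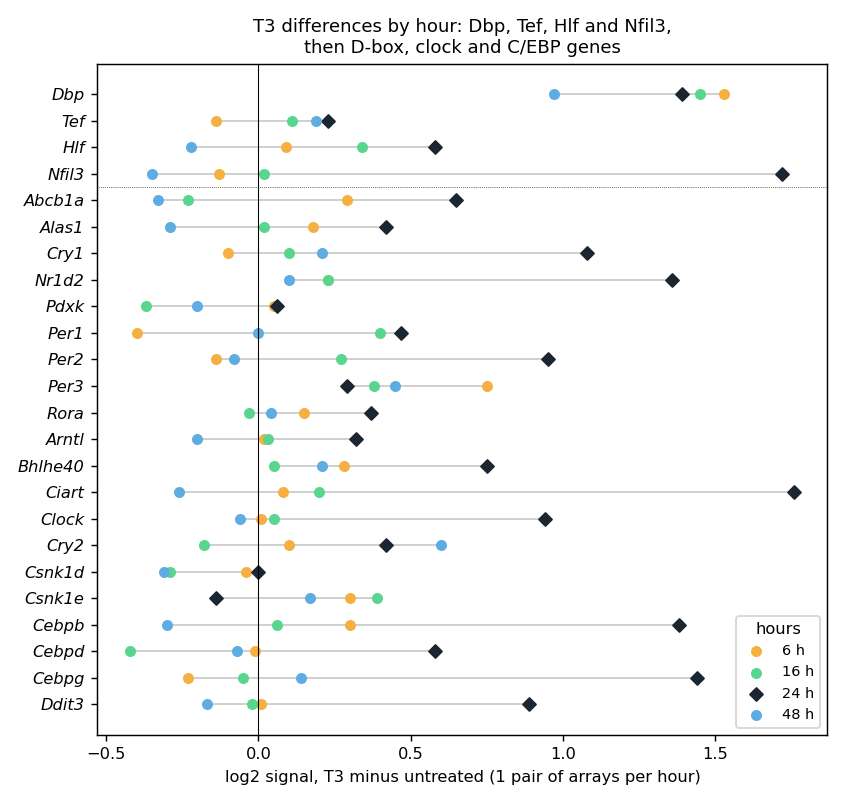
Log2 signal with T3 minus without T3 at each hour, 1 pair of arrays per point, for Dbp, Tef, Hlf and Nfil3 (above the dotted line) and the kept genes of the D-box, clock and C/EBP lists, each gene shown once. Diamonds mark 24 h. Dbp lies at 0.97 to 1.53 at all hours, whereas Nfil3, Ciart and Nr1d2 are beyond 2-fold at 24 h alone.

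The C/EBP family, whose bZIP proteins are close to the PAR factors, was read for comparison. Of 7 genes 4 were kept, and none passed for T3 or for the hours (limma). Cebpb was at 229.5, 322.0, 411.5 and 419.0 with T3 and 186.1, 308.8, 158.2 and 516.5 without T3, and Cebpg at 1247, 1123, 1672 and 661.2 with T3 and 1461, 1164, 615.5 and 599.6 without T3. Both were over 2-fold higher with T3 at 24 h and at no other hour. All 4 kept C/EBP genes had their largest difference at 24 h, as Nfil3 did, beside 54.5% of all kept genes. Over 2-fold higher with T3 were 3.67% of all kept probe-sets at 24 h, against 0.433% to 0.833% at the other hours. Every 24 h difference uses the untreated array with the high glial markers, so nothing particular to the family is read from this. Klf9, for comparison with Dbp, was at 3100, 2737, 3131 and 2268 with T3 and 1220, 1508, 1235 and 1498 without T3, and did not share the rise of Dbp with the hours (slope -0.02, limma adjusted p = 0.907).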

How the data were processed

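The deposited table holds 1 signal intensity per probe-set and array (Affymetrix mouse arrays), made by the authors with GCOS and MAS 5 on a linear scale after linear amplification, for which the methods give 1 round and the labels name a protocol with 2 cycles. Tool versions are not given in the sources used here. All arrays had the same trimmed mean (100.0, leaving out 2% at each end). Value columns left unused: 0. Of 45101 probe-sets 64 controls were dropped. In the platform annotation 34945 have 1 symbol, 932 several and 9160 none, and only those with 1 name a gene, by its brightest probe-set.

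Log2 was taken after a floor of 1, and the 60th percentile of the mean was the filter. limma 3.58.1 (R 4.3.3) with a variance trend fitted T3 with the time point as a block, then log2 hours alongside a treatment term, with a random block per time point (within-block correlation 0.569 by duplicateCorrelation), then the 4 T3 differences against the log2 of the hours, where 0 probe-sets passed (309 at an unadjusted p under 0.05). Adjustment followed Benjamini and Hochberg across the 18015 probe-sets at 0.05, and SE is limma's moderated value. The methods state that both cultures of a time point came from 1 batch of cells. Their deviations from the treatment means correlated at 0.905, 0.713, 0.520 and 0.878 for 6, 16, 24 and 48 h. A change with the hours common to both treatments raises these values too, so they do not show a shared batch. P values measure the spread between these arrays, which have no replicates. The fits were tested on simulated data with the same noise at every hour. The T3 differences of the real arrays had an SD of 0.60 at 24 h and 0.29 to 0.32 at the other hours, which the simulation does not cover.

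The members, gene lists and naming rules were chosen with earlier results of these data known. Named are all members, list genes that passed, the 5 genes most like Dbp by Pearson correlation and the 5 with the highest smallest T3 difference. Other list genes a sentence turns on, such as Clock, Ciart, Alas1 and Cebpb, were named after their values were seen. Promoter windows are those of RefSeq (GRCm38.p6), where all 4 members matched. Other steps used Python 3.11.15, numpy 2.4.6, pandas 2.3.3 and matplotlib 3.10.9. Alternatives were other normalizations, 32 added to every signal, other filters, the block left out, hours in place of their log2, means over probe-sets and each time point left out. Leaving out the untreated 24 h array was chosen after seeing the data, as were, for the change with time, median centring, the filter at the 75th percentile and the mean over probe-sets, and, for the T3 differences against the hours, 32 added (0 again passed).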

Additional observations from a re-analysis of the deposited data

How the results depend on the processing

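The mean T3 difference of Dbp lay between 1.27 and 1.45 with each time point left out and between 1.19 and 1.36 under the other settings, beside 1.33. For Tef, Hlf and Nfil3 the ranges without 1 time point were 0.05 to 0.18, 0.07 to 0.34 and -0.15 to 0.54, and with the mean of all its probe-sets, the one below the filter included, Tef came to 0.53 in place of 0.10. The number of probe-sets passing for T3 stayed 0 with quantile normalization, median centring, 32 added to every signal, no filter, a stricter filter and no block for the pairing, and was 0 to 2 with a time point left out, the 2 being 1 probe-set each of Dbp and Kcnj13 without the 24 h pair. Nothing is read from this for Dbp, which was picked on that contrast. The block changed no call for T3.

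Counts over time moved most. Beside 392 probe-sets, 3458 passed with no block, 0 on the mean of each time point, 0 with hours in place of their log2, 55 with quantile normalization (41 rising), 162 with 32 added and 8 with no filter, and 0 to 4981 with a time point or the untreated 24 h array left out (0 without 6 h and without 48 h, 1109 without 16 h, 4981 without 24 h, 1613 without the untreated 24 h array). The cause was not tested. The slope of Dbp kept its sign and lost its call on time point means (0.61, adjusted p = 0.208), with hours (0.0413 per hour, 0.165), quantile normalization (0.60, 0.0573), median centring (0.63, 0.0508), 32 added (0.54, 0.0514), no filter (0.61, 0.0699) and the mean of its probe-sets (0.60, 0.0518). That of Hlf lost it on time point means (0.65, 0.208), with hours (0.0428 per hour, 0.165), quantile normalization (0.65, 0.0605), median centring (0.68, 0.0566), 32 added (0.41, 0.0589) and no filter (0.65, 0.0650), and Hlf did not reach the filter at the 75th percentile. With a time point left out the slope of Dbp was 0.52 to 0.65 and that of Hlf 0.59 to 0.67, and neither passed without the 6 h pair (adjusted p = 0.999 for both) or the 48 h pair (0.501 and 0.439). The slope of Tef, never passing, was -0.19 to 0.03, turning to 0.03 without the 6 h pair, and that of Nfil3 0.02 to 0.30. With 1 array per condition, the number of arrays limits the precision, and low signals such as those of Hlf at 6 h and of the dimmest Tef probe-set are the least certain.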
